A study of Mus musculus with 2 samples.

Results

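Deep intronic DNase I hypersensitive peaks of moderate value were examined in the heart of newborn mice. Members were pairs of overlapping peaks, 1 from each of 2 libraries, on chromosomes 1 to 19. Both peaks had a value below 80 in the authors' units, and both centres lay in an intron of a protein-coding gene, in no annotated exon and more than 10 kb from every annotated transcription start site (TSS). The pairs were chosen by their peak values and their overlap, so their reproducibility and their levels are given as a description. Of 111143 pairs on these chromosomes, 17646 (15.9%) were members. These pairs made up 94.1% of the 18745 deep intronic pairs of any value, and the remaining 1099 reached 80 in at least 1 library.

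In DNase-seq, an enzyme that cuts open chromatin more readily than packed chromatin is applied to nuclei, and the ends of the cut fragments are sequenced. Both libraries came from whole heart tissue of strain B6NCrl at postnatal day 0, with no treatment or genotype named, and form 1 group numbered as biological replicates 1 and 2. The labels name 1 donor for both, with a biosample of its own for each and the sex not collected, so the spread between them may be technical. With 1 group of 2 libraries no difference below was tested. Whole heart mixes cell types, and a site open in few cells cannot be told apart from a site weakly open in many. Replicate 1 had 160637 peaks and replicate 2 had 141255 on these chromosomes, each 150 bp wide, and read depth is unknown.

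Accessible sites far inside introns are often enhancers, which bind transcription factors and can act on the host gene or on another gene, or sites of CTCF, a zinc finger protein that anchors chromatin loops. In heart muscle, MEF2 factors bind an A/T-rich site at genes of contraction, and TEAD factors are the DNA-binding partners of YAP in the Hippo pathway. AP-1 (dimers of FOS and JUN), ETS factors and ERR receptors, which drive oxidative metabolism, have short sites of their own. REST silences neuronal genes in cells that are not neurons.

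The following windows show what such peaks look like at the level of bases. Each is the 150 bp peak of replicate 1, read from the GRCm38.p6 reference (the sequence of mm10) in the 5′ to 3′ direction of the + strand, with matches to the named motif, on either strand, in capitals. For each motif but REST, the window is that of the highest member in a host from the heart gene lists with little repeat-masked sequence. The REST window was picked after its values were seen.

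Rbm20, MEF2, chr19:53697776-53697925, + strand: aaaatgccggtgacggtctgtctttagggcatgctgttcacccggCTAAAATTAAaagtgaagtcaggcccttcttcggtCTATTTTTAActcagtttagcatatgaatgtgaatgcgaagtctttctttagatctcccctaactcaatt

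Pdgfrl, CTCF, chr8:40961876-40962025, + strand: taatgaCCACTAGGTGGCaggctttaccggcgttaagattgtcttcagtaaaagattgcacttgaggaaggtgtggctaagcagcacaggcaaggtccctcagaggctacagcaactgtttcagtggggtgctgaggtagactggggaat

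Smad6, TEAD, chr9:63959256-63959405, + strand: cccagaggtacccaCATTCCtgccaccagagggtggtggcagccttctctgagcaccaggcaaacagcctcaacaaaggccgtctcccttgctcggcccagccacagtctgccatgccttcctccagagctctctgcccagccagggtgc

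Igf1r, ERR, chr7:68065116-68065265, + strand: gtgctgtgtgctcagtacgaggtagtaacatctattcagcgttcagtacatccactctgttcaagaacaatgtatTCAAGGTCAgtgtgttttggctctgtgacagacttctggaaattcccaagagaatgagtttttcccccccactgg

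Rbpms, ETS core, chr8:33785016-33785165, + strand: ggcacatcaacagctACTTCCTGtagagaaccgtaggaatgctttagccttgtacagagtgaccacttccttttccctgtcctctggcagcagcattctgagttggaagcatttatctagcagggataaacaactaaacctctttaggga

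Xkr6, REST, chr14:63713256-63713405, + strand: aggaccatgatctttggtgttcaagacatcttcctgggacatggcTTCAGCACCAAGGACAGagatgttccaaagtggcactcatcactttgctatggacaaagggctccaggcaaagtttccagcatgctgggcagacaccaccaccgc

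The Rbm20 window had values of 77 in replicate 1 and 76 in replicate 2 and lay in the first intron, 20545 bp from the start of this gene for a splicing regulator of titin. It holds 2 MEF2 matches. The window in Pdgfrl, which encodes a receptor-like protein, was at 77 in both libraries and has its CTCF match near 1 edge. The window in Smad6, an inhibitor of BMP signalling, had values of 76 and 79. In Igf1r, the receptor of insulin-like growth factors, the ERR window had 55 and 64 and lay 83399 bp from the nearest TSS. The window in Rbpms, an RNA-binding protein of muscle, had 74 and 66 and lay in the last intron. The Xkr6 window had 55 and 50. All 6 windows lay above the median member in both libraries.

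Members spanned the whole permitted range of values. They ran from 2 to 79 in both libraries, with a median of 39 and quartiles of 28 and 52 in replicate 1 and a median of 34 and quartiles of 24 and 46 in replicate 2. On the log2 scale, replicate 2 minus replicate 1 had a median of -0.19, and 70.3% of members were higher in replicate 1. Within a pair, 98.1% of values lay within 2-fold of each other. Across the 17646 pairs the Spearman correlation of values was 0.869, a description across peaks of the same libraries and cut at the same limit. At the limit, 10 pairs had 78 or 79 in both libraries and 12 had 80 or 81 in both. The highest members were at 79 and 79 in introns of Prkca, a signalling kinase, and of Auts2, a gene of neural development. Next were Rad51b (79 and 78), a DNA repair gene, Map3k1 (78 and 79), a stress kinase, and Zmynd8 (78 and 79), a chromatin reader.

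Nearly all members lay within a hotspot, the authors' wider region of raised cleavage. The centre was inside one for 99.0% of members in both libraries. Hotspots listed at the ceiling of 100 for the −log10 q-value held 39.6% of members in replicate 1 and 29.1% in replicate 2. The corresponding shares were 43.8% and 34.9% for deep intergenic pairs below 80, and 98.5% and 89.4% for deep intronic pairs that reached 80. By this second deposited measure, which comes from the same reads, most members lay in hotspots below the ceiling, unlike the pairs that reached 80.

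Many deep intronic peaks below 80 had no partner in the other library and were therefore no members. In replicate 1, 65.5% of 27500 such peaks were overlapped by a peak of replicate 2, and in replicate 2, 79.1% of 23427 were overlapped by one of replicate 1. The mean was 72.3% ± 9.62 (SD, n = 2 libraries). Both shares count the same overlap between 2 lists of unlike length, so this SD is not a spread of independent measurements. Deep intergenic peaks below 80 had shares of 66.8% and 78.7%. Among deep intronic peaks the share rose with the value from 20 to 29 upward and reached 99.4% and 99.5% at 70 to 79. Below 20 it was 46.4% in replicate 1, above the share at 20 to 29, and 60.05% in replicate 2. At like values below 70 the share was lower in introns than between genes in both libraries. At 20 to 29 it was 43.9% against 47.9% in replicate 1 and 65.7% against 69.6% in replicate 2, and at 30 to 39 it was 65.0% against 72.5% in replicate 1 and 86.2% against 88.4% in replicate 2. Peaks without a partner had a median value of 25 in replicate 1 and 21 in replicate 2.

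**Figure D1:**
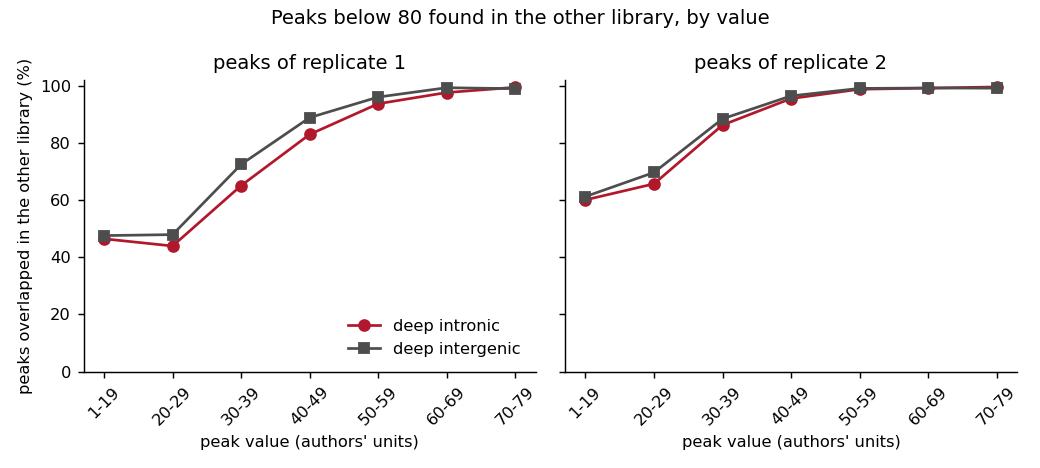
Share of deep intronic (circles) and deep intergenic (squares) peaks below 80 that a peak of the other library overlaps by at least 1 bp (y axis, percent) against the value of the peak in authors' units (x axis), 1 panel per library. Intronic peaks lie below intergenic ones at values under 70 in both libraries, by most in replicate 1 at 30 to 39, and both approach 99% at the upper end.

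Moderate pairs were denser in deep intronic than in deep intergenic sequence. There were 36.5 members per Mb over 483.2 Mb of introns where the rule can hold, against 23.1 moderate pairs per Mb over 892.9 Mb of intergenic sequence more than 10 kb from every TSS, a ratio of 1.58. The order was the same at every distance from the TSS. At 10 to 20 kb there were 43.0 members per Mb in introns and 32.5 pairs per Mb between genes, and beyond 200 kb 12.96 and 8.48. Members per Mb on single chromosomes ranged from 30.2 on chromosome 3 to 43.5 on chromosome 11.

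**Figure D2:**
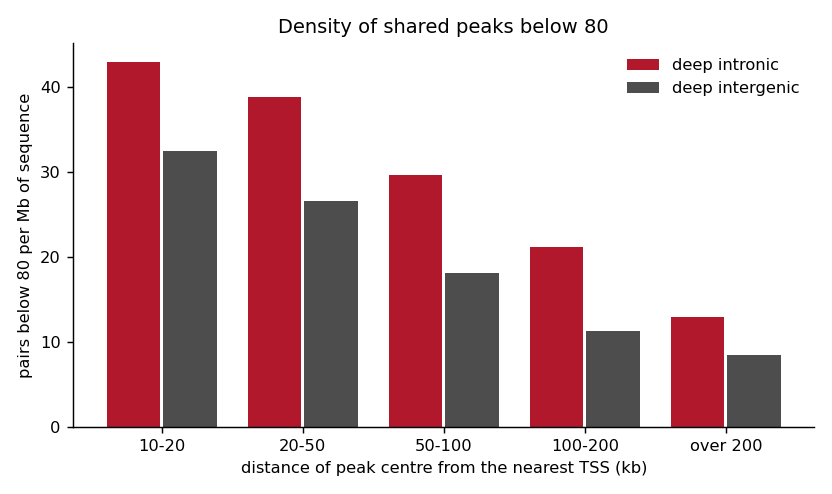
Pairs below 80 in both libraries per Mb of eligible sequence (y axis) by distance of the peak centre from the nearest annotated TSS in kb (x axis), for deep intronic (left bars) and deep intergenic pairs (right bars). Intronic density falls from 43.0 per Mb at 10 to 20 kb to 12.96 beyond 200 kb and is the higher of the pair in all 5 distance classes.

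Within genes, members were spread over the whole length and were about as dense in first introns as in later ones. The median member lay 24185 bp from the nearest TSS, 87028 bp from the 5′ end of its host and 7534 bp from the nearest exon. First introns held 15.1% of members, and the density was 37.1 per Mb in first introns against 36.5 per Mb in later ones. With each host divided into 5 equal parts from its 5′ end, the shares were 13.8%, 22.6%, 22.6%, 21.7% and 19.3%. The first of these is reduced by the rule itself, which removes sequence near the TSS. The members farthest from any TSS lay in Dcc, an axon guidance receptor, and in Ptprd, a neuronal phosphatase. Those in Dcc lay at 703946 bp (values of 17 and 37), 641966 bp (26 and 17) and 580106 bp (17 and 13). Those in Ptprd lay at 600513 bp (37 and 36) and 563968 bp (14 and 11).

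Members often lay close to each other. The median distance to the nearest other member was 6600 bp, and 43.9% had another member within 5 kb. How much of this closeness follows from the density of members was not tested. Linked by gaps of at most 2 kb, members formed 2181 runs of 2 or more and 13 runs of 5 or more, while 12844 stood alone. The longest runs had 6 members. In Igf2r, the receptor that clears IGF2, the run lay at chr17:12721136-12726165 and had values of 39 to 73 in replicate 1 and 30 to 59 in replicate 2. In Rras2, a RAS-related GTPase, the run spanned 4130 bp and had values from 29 to 71 and from 25 to 66. The third run of this size, in Ppfibp2, spanned 2610 bp. Such runs were listed as separate 150 bp peaks by the authors, and overlapping neighbours of 1 list can be parts of a single wider site.

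The bases of members differed from their surroundings. Mean GC content was 49.4% in both libraries, against 44.3% in flanks, which are windows of the same 150 bp width whose centres lie 1000 bp away on both sides. There were 2.13 CpG per window in members and 1.495 in flanks. Repeat-masked bases made up 10.7% of members and 22.9% of flanks in replicate 1. Deep intergenic pairs had 13.1% and their flanks 27.2%. Flanks were not matched to members in base or repeat content. How far these differences move the motif ratios below was not tested.

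The CTCF motif had by far the highest ratio of the motifs found in at least 100 members. It occurred in 4.92% of member windows in replicate 1 and 4.93% in replicate 2, against 0.110% and 0.0992% of flanks. The mean ratio was 47.1 ± 3.68 (SD, n = 2 libraries). The 2 windows of a pair mostly covered the same bases, with at least 110 of 150 bp shared in 87.4% of members. The SDs of motif ratios, here and below, therefore do not measure the spread between independent libraries. In deep intergenic pairs below 80 the CTCF shares were 6.09% and 6.19%. In deep intronic pairs that reached 80 they were 1.36% and 1.55%. Across members the share with CTCF was 0.474% below 20 in replicate 1, 7.23% at 50 to 59 and 3.90% at 70 to 79. In replicate 2 it was 0.328% below 20, 8.52% at 50 to 59 and 8.47% at 70 to 79. CTCF matches were thus rare in the weakest members of both libraries, and among members the decline at the top was seen in replicate 1. The rule cuts the top class of replicate 2, which held 307 members against 650 deep intronic peaks with a partner. In all, 556 deep intronic pairs were below 80 in replicate 2 only and were no members, against 55 in replicate 1 only. The top classes of the 2 libraries are therefore not alike.

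CTCF windows were also concentrated in peaks found in both libraries. Of deep intronic peaks below 80 in replicate 1, 4.86% of those with a partner and 0.527% of those without one held the motif. In replicate 2 the shares were 4.74% and 1.57%. At like values, from 30 to 39, they were 5.48% and 0.534% in replicate 1 and 5.04% and 2.46% (17 of 692 peaks) in replicate 2. Having a partner was part of the rule, while the sequence was not. MEF2, AP-1 and TEAD differed by smaller factors at these values. MEF2 was in 5.17% with and 4.18% without a partner in replicate 1 and in 5.96% and 4.19% in replicate 2. AP-1 was in 8.85% and 9.39% in replicate 1 and in 9.08% and 6.50% in replicate 2. The TEAD share was 12.2% with and 12.8% without a partner in replicate 1, and 13.2% and 13.7% in replicate 2. By distance from the TSS, the CTCF share of members was 5.74% at 10 to 20 kb and 2.87% beyond 100 kb in replicate 1.

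The MEF2 motif followed another course. It occurred in 6.02% and 5.90% of members and in 2.91% and 2.80% of flanks, a mean ratio of 2.09 ± 0.026 (SD, n = 2 libraries). Deep intergenic pairs had a ratio of 1.72, and deep intronic pairs that reached 80 had 6.74. The share rose with the value in both libraries. In replicate 1 it was 2.05% below 20, 6.51% at 40 to 49 and 11.8% at 70 to 79. In replicate 2 it was 3.06%, 6.89% and 8.79%, the last in the top class that the rule cuts. It was 5.52% at 10 to 20 kb from the TSS and 7.11% beyond 100 kb in replicate 1, an opposite order to that of CTCF.

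**Figure D3:**
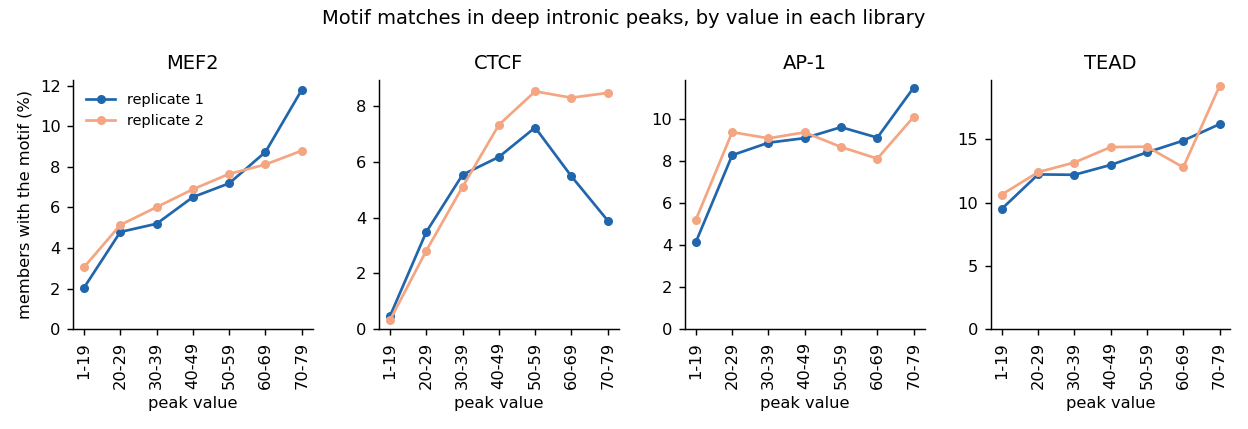
Share of members with a match to MEF2, CTCF, AP-1 or TEAD (y axes, percent, each from 0) by value of the peak in authors' units (x axes), for replicate 1 and replicate 2. MEF2 rises to 11.8% in replicate 1 and 8.79% in replicate 2 at 70 to 79, and CTCF is under 1% below 20 in both libraries.

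Several further motifs were more frequent in members than in flanks. AP-1, searched as TGANTCA on both strands, was in 8.58% and 8.51% of members, with a mean ratio of 1.92 ± 0.036. TEAD, searched as GGAATG, was in 12.8% and 13.1%, with a ratio of 1.56 ± 0.040. ERR (TCAAGGTCA) was in 0.759% and 0.805%, with a ratio of 1.92 ± 0.135. This letter string contains the shorter nuclear receptor motif, so the counts of both overlap. The ETS core CAGGAAGT had 2.57 ± 0.056. The E-box CAGCTG, bound by TCF21 in fibroblasts and by MYOD in skeletal muscle, had 2.09 ± 0.006 (SD, n = 2 libraries for each ratio). It was in 14.5% of members. Deep intergenic pairs below 80 had mean ratios of 1.47 for TEAD, 1.51 for ERR, 2.71 for the ETS core and 2.16 for CAGCTG.

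Other motifs lay on both sides of their flanks. MEIS had a ratio of 1.52 and was in 16.5% of members in both libraries, and the core of the NFI site had 2.02. The GATA motif AGATAA had a ratio of 1.14 ± 0.018 (SD, n = 2 libraries), with 10.2% and 9.95% of members and 8.87% and 8.83% of flanks. SOX had a ratio of 1.05, FOX of 0.89 and the E-box CAGGTG of ZEB and SNAI repressors of 0.73. The octamer ATGCAAAT of POU factors had 0.64. Flanks had a lower GC content than members, and its part in ratios on either side of 1 was not tested. Of 33 motifs with a ratio, 26 stayed above 1 in every setting tried, 5 stayed below it and 2 lay on both sides. HNF1 had no match in members, in flanks or in any other class compared, so it gave no ratio. Intergenic pairs had similar ratios for AP-1 (1.97) and GATA (1.06), and a lower one for TBX (0.59 against 0.98 in members).

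**Figure D4:**
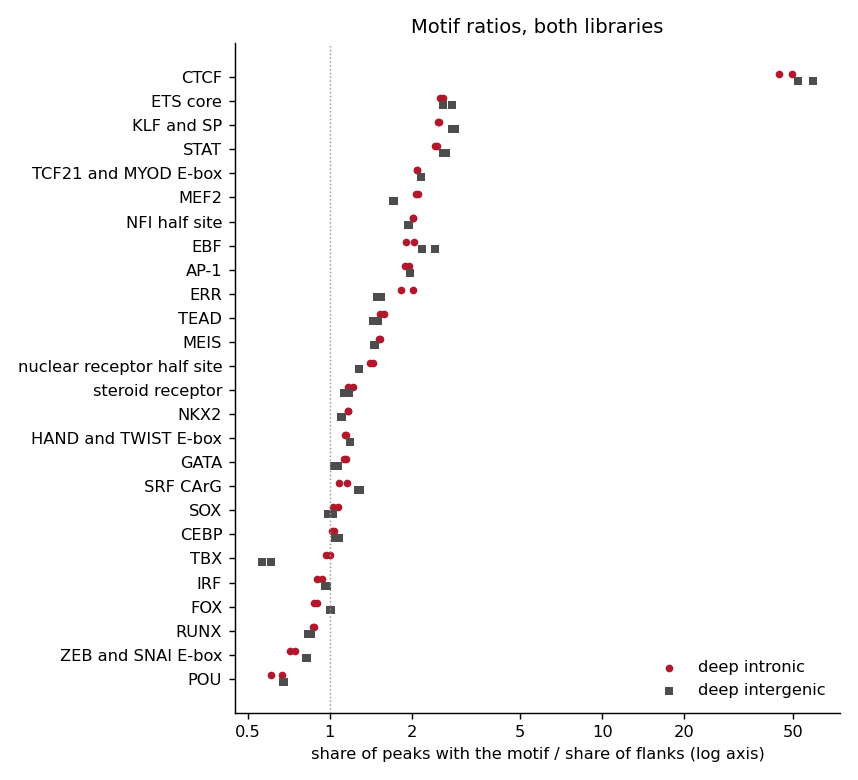
Share of peaks with a motif divided by the share in flanks (x axis, log scale) for motifs found in at least 100 members of replicate 1 (y axis), for deep intronic members (circles) and deep intergenic pairs below 80 (squares), 1 point per library. CTCF lies near 47 in members, MEF2 near 2.09, and POU and the ZEB and SNAI E-box below 1.

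A small group of members held the full REST site, 22 windows in replicate 1 and 23 in replicate 2, or 0.125% and 0.130% of members against 0.00283% of flanks. The ratio was 44.0 in replicate 1 and 46.0 in replicate 2 and rests on 1 flank window in each library. Deep intergenic pairs below 80 held it at a like share, 0.136% in both libraries, and intronic pairs 1 to 10 kb from a TSS at 0.0970% and 0.103%. In the brain neuron list 1 of 320 members held it. The following hosts are examples picked after their values were seen. Scn10a, a sodium channel next to the main cardiac sodium channel gene, had 2, at 53 in replicate 1 and 49 in replicate 2 and at 28 and 21. Rbfox3, a splicing factor of mature neurons, had 1 at 47 and 45. Ntm, a neural adhesion protein, had 1 at 52 and 52, and Lingo1, an inhibitor of axon growth, had 1 at 35 and 36. Cacna1h, a T-type calcium channel, had 1 at 26 and 39, whose match lay in the window of replicate 2 alone. REST members were also found in Tnni3k, a cardiac kinase (44 and 33), and in Ctnna3 (37 and 39), in Dock2, a regulator of leukocyte migration (42 and 28), and in Kynu, an enzyme of tryptophan breakdown (38 and 32).

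Of 7963 protein-coding genes with at least 1 kb of eligible intron, 4301 (54.0%) hosted a member. Among them, 1476 had 1 member, 1620 had 2 to 4, 773 had 5 to 9, 340 had 10 to 19 and 92 had 20 or more. Of the 2167 genes with at least 50 kb of eligible intron, 91.6% hosted one. The number of members followed the eligible length (Spearman 0.716 across the 7963 genes, which share libraries). Counts per gene are therefore given with the density per length. Among genes with at least 50 kb, the median was 3.61 members per 100 kb and the quartiles 1.70 and 6.15.

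The hosts with most members were long genes. Gm20388 (172 members), Fgfr2 (70) and Gm37240 (59) had annotated introns of 4384418, 2815493 and 1244595 bp and spanned 71, 29 and 6 other genes, and 177 members (1.00%) had no host but these. Next came Camta1 with 52, a calmodulin-binding transcription activator, Pde4d with 47, a phosphodiesterase of cyclic AMP, and Kalrn with 46, a guanine exchange factor. Wwox had 44, Cdkal1 43, Prkce, a kinase of cardiac protection, 43, and Rbms3 41. By density other genes stood high. Zmiz1, a coactivator, had 14 members or 18.6 per 100 kb. Insr, the insulin receptor, had 9 or 16.2, and Casz1, a zinc finger factor of heart development, 10 or 15.8. Myo10, Spred2, Klhl3, Cfdp1, Lmf1 and Lrp5 lay between 15.6 and 16.9 per 100 kb.

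Genes of calcium handling and conduction differed in how many members they held. Cacna1c, the pore of the cardiac L-type calcium channel, had 24 members (5.90 per 100 kb), with values from 17 to 77 and a median of 49.5 in replicate 1, and from 18 to 70 with a median of 44 in replicate 2. Of these, 11 lay in 1 intron. Slc8a1, the sodium-calcium exchanger, had 16, with values of 29 to 76 in replicate 1 and 18 to 70 in replicate 2. Ank2, an anchor of ion transporters, also had 16, and Kcnq1, a potassium channel, had 11 (9.47 per 100 kb). Ryr2, the calcium release channel, stood low, with 4 members in 330.8 kb of eligible intron (1.21 per 100 kb). These had 66, 46, 44 and 38 in replicate 1 and 47, 32, 45 and 32 in replicate 2. Camk2d, a calcium-dependent kinase, had 4 at 78, 58, 39 and 32 in replicate 1 and 55, 66, 40 and 30 in replicate 2, so the order of its upper members was exchanged between libraries.

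Sarcomere hosts ranged widely in their number of members and in density. Fhod3, a formin that assembles sarcomeres, had 20 (5.39 per 100 kb), with medians of 42 and 35. Ldb3, a Z-disc protein, had 4 (12.4 per 100 kb) at 77, 75, 69 and 53 in replicate 1 and 66, 58, 55 and 50 in replicate 2. All 4 were higher in replicate 1. Ttn, the giant spring of the sarcomere, had 3 at 62, 58 and 45 in replicate 1 and 57, 47 and 42 in replicate 2, or 4.44 per 100 kb, against the median of 3.61 for hosts with at least 50 kb. Pdlim5 had 9 and Myom1, an M-band protein, 6 (11.2 per 100 kb).

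Among cardiac transcription factors, Tead1 had 14 members (11.9 per 100 kb) and Mef2c 6 (11.6 per 100 kb), all 6 in 1 intron and with values of 22 to 73 in replicate 1 and 21 to 53 in replicate 2. Zfpm2, the GATA4 cofactor, had 19, Prdm16 17, Foxp1 16 and Esrrg, an ERR receptor, 31. Meis1, which limits the cell cycle of heart muscle, had 8 with high values of 52 to 78 in replicate 1 and 42 to 68 in replicate 2. Tbx5 had 4 at 68, 66, 62 and 19 in replicate 1 and 51, 63, 41 and 12 in replicate 2, so 1 of its members was weak in both libraries. Myocd, a coactivator of SRF, had 2 at 68 and 57 in replicate 1 and 73 and 47 in replicate 2. Gata4 had 1 at 51 and 60 and Mef2a 3, while Tbx20, with 30.6 kb of eligible intron, had none.

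Of genes from the cell junction and growth lists, Ctnna3, a catenin of the intercalated disc, had 33 members at low density (2.33 per 100 kb) and Sgcd, a sarcoglycan, 20 (2.05 per 100 kb). Ctnna3 had 67 deep intronic peaks below 80 in replicate 1 and 47 in replicate 2. Erbb4, the neuregulin receptor, had 23 and Igf1r also 23, at 2.59 and 11.7 per 100 kb. Endothelial hosts included Erg, an ETS factor, with 15 members (9.14 per 100 kb), Flt1, a VEGF receptor, with 5 and Ets1 with 3. Ptprc, the leukocyte antigen CD45, had 3 at 49, 26 and 19 in replicate 1 and 55, 21 and 15 in replicate 2. The matrix gene Col4a1 had 1, and Wt1 and Pdgfra, markers of epicardium and of fibroblasts with little eligible intron, had none.

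**Figure D5:**
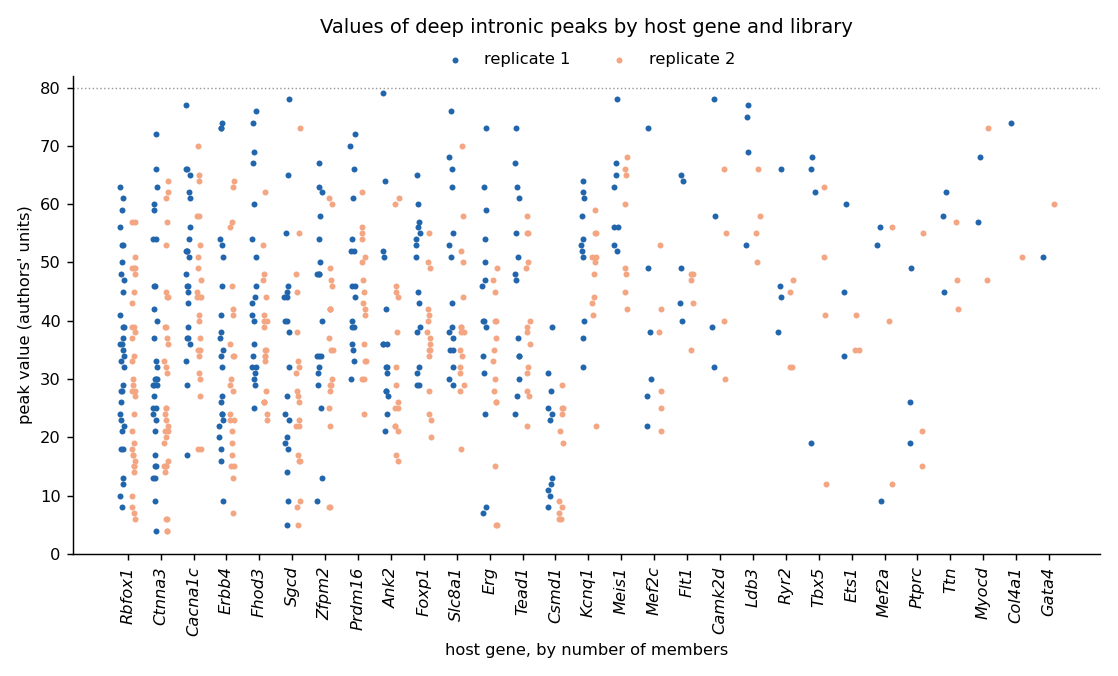
Value of each member in authors' units (y axis) for 29 host genes ordered by number of members (x axis), with replicate 1 at the left and replicate 2 at the right of each gene. The dotted line marks the limit of 80, Meis1 has no member below 42 in either library, and Csmd1 has none above 39.

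By gene list, members were most dense at cardiac transcription factors and cofactors, with 65.5 per Mb, and at sarcomere and Z-disc genes, with 59.9 per Mb, against 36.6 per Mb over all eligible genes. A member was hosted by 24 of 25 eligible transcription factor genes and by 17 of 17 sarcomere genes, against the 54.0% over all eligible genes, a share that also moves with gene length. Growth signalling genes had 48.6 per Mb (24 of 29), smooth muscle and pericyte genes 46.8 (8 of 14), skeletal muscle genes 39.4 (7 of 12) and endothelial genes 39.1 (22 of 26). Ion channel and calcium genes had 37.4 (22 of 25), fibroblast genes 35.7 (13 of 20) and junction genes 35.5 (21 of 24). Macrophage genes had 22.5 (11 of 14), hepatocyte genes 22.4 (3 of 12) and epicardial genes 16.6 (2 of 9). The lowest density was that of brain neuron genes, 11.9 per Mb, although 29 of 30 hosted a member. Among genes with at least 50 kb of eligible intron, where the share over all was 91.6%, 14 of 14 transcription factor genes, 7 of 7 sarcomere genes and 28 of 28 neuron genes hosted one, so this count does not separate the lists.

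The ends of this order were the same in each library alone. Transcription factor genes had 104.5 and neuron genes 18.8 deep intronic peaks below 80 per Mb in replicate 1, against 57.1 over all genes, and in replicate 2 they had 87.1 and 15.6 against 48.6. Host length moves with density. Over all genes it was 47.0 per Mb for hosts with 10 to 50 kb of eligible intron and 19.2 above 500 kb. Sarcomere genes had 96.8 per Mb from 10 to 50 kb (8 genes), 54.5 from 50 to 100 kb (4) and 46.3 from 100 to 500 kb (3). Over all genes the values in these classes were 47.0, 47.5 and 37.7. The 2 sarcomere genes with less than 10 kb held 3 members. Within hosts above 500 kb, 21 neuron genes had 10.8 members per Mb. From 100 to 500 kb, 6 transcription factor genes had 66.3 and 6 neuron genes 23.4, against 37.7 over all genes of that size. The ends of the order differed in this class. There, 2 fibroblast genes (95.9) and 4 growth genes (80.7) were denser than transcription factor genes, and 4 macrophage genes (22.4) lay just below neuron genes. How far length or distance from the TSS accounts for the rest was not tested.

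Members in neuron hosts were weak in places and rich in CTCF windows. Rbfox1 had 34 (medians of 34.5 and 28.5), and Csmd1 had 11 in 1456 kb (0.756 per 100 kb), with values of 8 to 39 in replicate 1 and 6 to 29 in replicate 2. CTCF was found in 9.69% of the 320 members of this list in both libraries, against 4.92% and 4.93% of all members, and MEF2 in 4.06% and 5.31%, against 6.02% and 5.90%. The MEF2 share varied between lists. It was found in 17 of 150 members of the junction list in replicate 1 and 15 in replicate 2, and in 20 and 19 of 232 members of the ion channel list. It was found in 3 and 2 of the 74 members of the sarcomere list (4.05% and 2.70%), below the shares over all members. The same held for the growth list, with 7 and 6 of 231 members (3.03% and 2.60%). These counts are small, and 70 of the growth members lay in Fgfr2, which spans 29 other genes.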

How the data were processed

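DNase-seq was run on 2 libraries of newborn heart. In the deposited peak files, each 150 bp peak has a whole-number signal value, whose normalization is not stated. In the deposited hotspot files, each region has a −log10 q-value with a ceiling of 100. A deposited text file says that both kinds were called on mm10 for each replicate alone. Aligner, caller, thresholds and read totals were not given in the sources used here, and without depth no counting interval could be had. The threshold of the caller decides which weak peaks are listed.

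Chromosomes 1 to 19 were used, and 9 and 10 repeat listings of an interval were dropped in replicate 1 and replicate 2. Peaks were paired one to one by largest overlap (at least 1 bp), and the position rule had to hold for both centres. Genes, exons and TSSs came from GENCODE vM21 on GRCm38.p6, whose sequence is that of mm10, and coordinates are printed from 1. Eligible intron is sequence in which the position rule holds, and a member in 2 genes counts for each. Motifs (34 consensus strings, both strands) were counted in 150 bp windows and in flanks centred 1000 bp away. CTCF, MEF2 and REST are named without their letters.

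Named genes were a fixed set, the 10 hosts with most members, the 10 densest, the top 3 of each of 13 gene lists, and the members with the highest value or farthest from a TSS; some of these are not reported here. The members and lists were chosen with earlier results of these data known. There was 1 group, so no p-value was computed. Alternatives changed the value limit, the overlap, the distance, the flanks, the hosts and the libraries. Pairing and motif counting were tested on simulated data. Python 3.11.15, numpy 2.4.6, pandas 2.3.3, scipy 1.17.1 and matplotlib 3.10.9 were used.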

Additional observations from a re-analysis of the deposited data

How the results depend on the processing

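The density ratio and the MEF2, TEAD, AP-1 and CTCF ratios stayed above 1 under every alternative run, and their sizes moved. Members numbered 17646, 10451 with peaks of at least 30 only and 10617 beyond 20 kb from every TSS. With 1 library in place of pairs, 23427 to 27500 peaks were listed. The density ratio to intergenic sequence was 1.54 with values below 60, 1.81 with peaks of at least 30 and 1.65 beyond 20 kb, and 1.59 to 1.61 in single libraries. The share of eligible genes with a member was 51.0%, 41.4% and 59.3% under the same 3 changes, and 58.8% to 60.6% in single libraries. The partner share without 1 or the other library is that of the remaining one, 65.5% to 79.1%.

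The MEF2 ratio was 1.79 (below 60), 2.82 (at least 30), 2.14 (overlap of at least 75 bp) and 2.05 (no repeat-masked base), and 1.76 to 2.06 in single libraries. The setting with no repeat-masked base filtered member windows alone, and their flanks could still hold such bases. TEAD gave 1.505 (below 60), 1.68 (at least 30), 1.51 (beyond 20 kb) and 1.60 (no repeat-masked base), and 1.502 to 1.57. AP-1 gave 1.88 (below 60), 2.15 (at least 30) and 1.86 (flanks at 500 bp), and 1.84 in either library alone. CTCF gave 66.9 (at least 30), 57.1 (flanks at 500 bp) and 42.0 (no repeat-masked base), and 34.9 to 49.03. The cause of these shifts was not tested. Leaving out hosts with an intron over 1 Mb, an alternative chosen after seeing the data, left 17469 members. The density at cardiac transcription factors ranged from 49.9 to 104.5 per Mb over all alternatives and that at brain neuron genes from 3.97 to 18.8. No paired analysis was possible because there is a single group.

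Read depth is unknown, so a difference between libraries cannot be told apart from a difference in sequencing. A motif match is a string of letters and shows no binding. A host is the gene around a peak, and which gene a peak acts on was not measured.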
